A study of Mus musculus with 28 samples.

Results

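The T helper 2 (Th2) cytokine genes Il4, Il5 and Il13, the transcription factor gene Gata3, the colony-stimulating genes Il3 and Csf2, and Il10 were followed across all groups of an array study of mouse CD4+ T cells. They are 7 of the 17097 genes with a probe set that the platform assigns to a single gene. Where a gene had several such probe sets, the one with the highest mean over the 26 arrays titled biological stood for it, and each of these 7 genes had only 1. The cells were total splenic CD4+ T cells of 12-week-old females of 3 strains. The reference strain was C57BL/6. B6.Sle1b carries a lupus-linked interval of chromosome 1 on that background, an interval that spans the SLAM receptor genes. The strain Sle1b.BACSlamf6-H1, called Sle1b.BAC here, carries the same interval and also an artificial bacterial chromosome whose name gives the H1 form of Slamf6. Cells in complete RPMI medium were left unstimulated or were activated for 4 h or 24 h with anti-CD3 (clone 145-2C11, 0.1 µg/ml) bound to 96-well U-bottom plates. This gave 9 groups of 3 arrays each, except for C57BL/6 at 24 h, which had 2 arrays titled biological and 2 more titled technical. The technical arrays entered no comparison. Nothing in the labels says that a group's samples stem from separate animals. The p-values therefore cover only the spread among samples, part of which may be technical.

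A CD4+ T cell that meets antigen through its receptor sends calcium and kinase signals that bring NFAT, AP-1 and NF-κB proteins to cytokine genes, and helper subsets differ in which of these genes they open. In Th2 cells GATA3 holds the linked genes Il4, Il13 and Il5 open, and their products drive IgE production, eosinophilia and mucus secretion. GM-CSF, the product of Csf2, and IL-3 act on myeloid cells and can be made by several helper subsets, while IL-10 restrains inflammation and comes from regulatory, Th2 and other T cells.

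Of the 7 genes, 5 lie close together on chromosome 11. In the RefSeq gene order no protein-coding gene separates Il4 from Il13, 1 (Rad50) lies between Il13 and Il5, 6 lie between Il5 and Csf2, and none lies between Csf2 and Il3. Gata3 lies on chromosome 2 and Il10 on chromosome 1. The 250 bases before the gene start are shown for Il4, Il13 and Csf2, the 3 genes called higher at 24 h in every strain, because the NFAT core letters that calcium signalling acts through can be read in them. Sequences are from RefSeq, build GRCm38.p6, minus strand, written 5′ to 3′ along the gene. They cover chr11:53618666-53618915 for Il4, chr11:53634703-53634952 for Il13 and chr11:54249900-54250149 for Csf2. Capitals mark GGAAA and its reverse complement TTTCC.
Il4: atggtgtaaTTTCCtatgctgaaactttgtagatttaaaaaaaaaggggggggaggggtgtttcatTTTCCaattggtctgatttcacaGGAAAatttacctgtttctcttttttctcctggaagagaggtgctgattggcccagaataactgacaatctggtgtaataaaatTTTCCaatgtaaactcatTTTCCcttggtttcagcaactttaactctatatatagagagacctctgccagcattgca
Il13: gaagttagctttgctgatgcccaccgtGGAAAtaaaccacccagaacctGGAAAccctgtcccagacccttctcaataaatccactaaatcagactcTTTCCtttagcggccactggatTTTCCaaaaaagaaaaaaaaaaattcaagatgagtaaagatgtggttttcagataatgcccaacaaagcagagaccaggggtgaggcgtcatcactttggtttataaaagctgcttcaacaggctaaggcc
Csf2: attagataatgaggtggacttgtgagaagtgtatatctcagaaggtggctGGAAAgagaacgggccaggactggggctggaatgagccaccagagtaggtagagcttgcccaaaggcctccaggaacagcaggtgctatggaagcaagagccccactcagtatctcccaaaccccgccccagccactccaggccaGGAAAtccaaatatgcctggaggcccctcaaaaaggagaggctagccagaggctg
The Il4 window held 5 such matches, the first at -241 to -237 and the last at -59 to -55 from the gene start. Another RefSeq window of Il4, at chr11:53617339-53617588 and not at the gene start, held 0. The Il13 window held 4 and the Csf2 window 2. The windows of Il5 and Il3, not printed, held 2 and 1. Of 32851 RefSeq promoter windows of this length, 55.6% held at least 1 match, 21.4% at least 2, 1.59% at least 4 and 0.39% at least 5. The AP-1 letters TGANTCA were absent from the windows of all these genes and were present in 6.75% of all windows. GATAA or its reverse complement TTATC, the letters that GATA factors read, occurred 1 time in Il13, 1 time in Csf2 and 2 times in Il3, against 22.6% of all windows with at least 1. Both strands were searched, and no match to 1 motif overlapped a match to another. A match describes letters in this window and is no evidence of binding.

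The 75th percentile of intensity lay between 34.2 and 53.3 over the 28 arrays, and 3 arrays were dim for their group (C57BL/6 unstimulated 2, B6.Sle1b unstimulated 3 and Sle1b.BAC 4 h 2, at 34.8, 35.6 and 34.2). Background, taken on each array as the 95th percentile of 23 non-specific controls, lay between 2.76 and 3.21 on the log2 scale. All 9 of the tested CD4 T cell markers lay above background in every group. Values below are log2 of the deposited RMA intensity, in the order of arrays 1, 2 and 3 of a group. Differences are between group means, with their standard errors, from 1 limma fit of the 26 arrays, with p-values adjusted by Benjamini-Hochberg over all 17097 genes of a comparison, and a gene is called changed under 0.05. In whole CD4+ T cell RNA, a change in the number of cells that make a cytokine and a change in the RNA made per cell cannot be told apart.

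On anti-CD3 Il4 and Csf2 rose within 4 h in all 3 strains, and both were still higher than in unstimulated cells at 24 h. Il13 was called higher in every strain at 24 h, Il10 was called lower in every strain at 24 h, and Gata3 and Il5 were called in no comparison between times. At 4 h against unstimulated, 3 of the 7 genes were called in C57BL/6, where 7.04% of all genes were called. The count was 3 in B6.Sle1b (5.69% of all genes) and 3 in Sle1b.BAC (10.6%). At 24 h against unstimulated the counts were 4 in C57BL/6 (24.3% of all genes), 4 in B6.Sle1b (28.2%) and 5 in Sle1b.BAC (29.1%). Between 4 h and 24 h 2 genes were called in C57BL/6 (18.6%), 3 genes in B6.Sle1b (24.2%) and 2 genes in Sle1b.BAC (24.8%). For 24 h against unstimulated the 7 genes had median differences of 1.32 (C57BL/6), 1.12 (B6.Sle1b) and 1.96 (Sle1b.BAC), beside medians over all genes of 0.04, 0.07 and 0.06. Comparisons of 4 h and of 24 h with unstimulated cells share the unstimulated arrays of a strain.

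**Figure D1:**
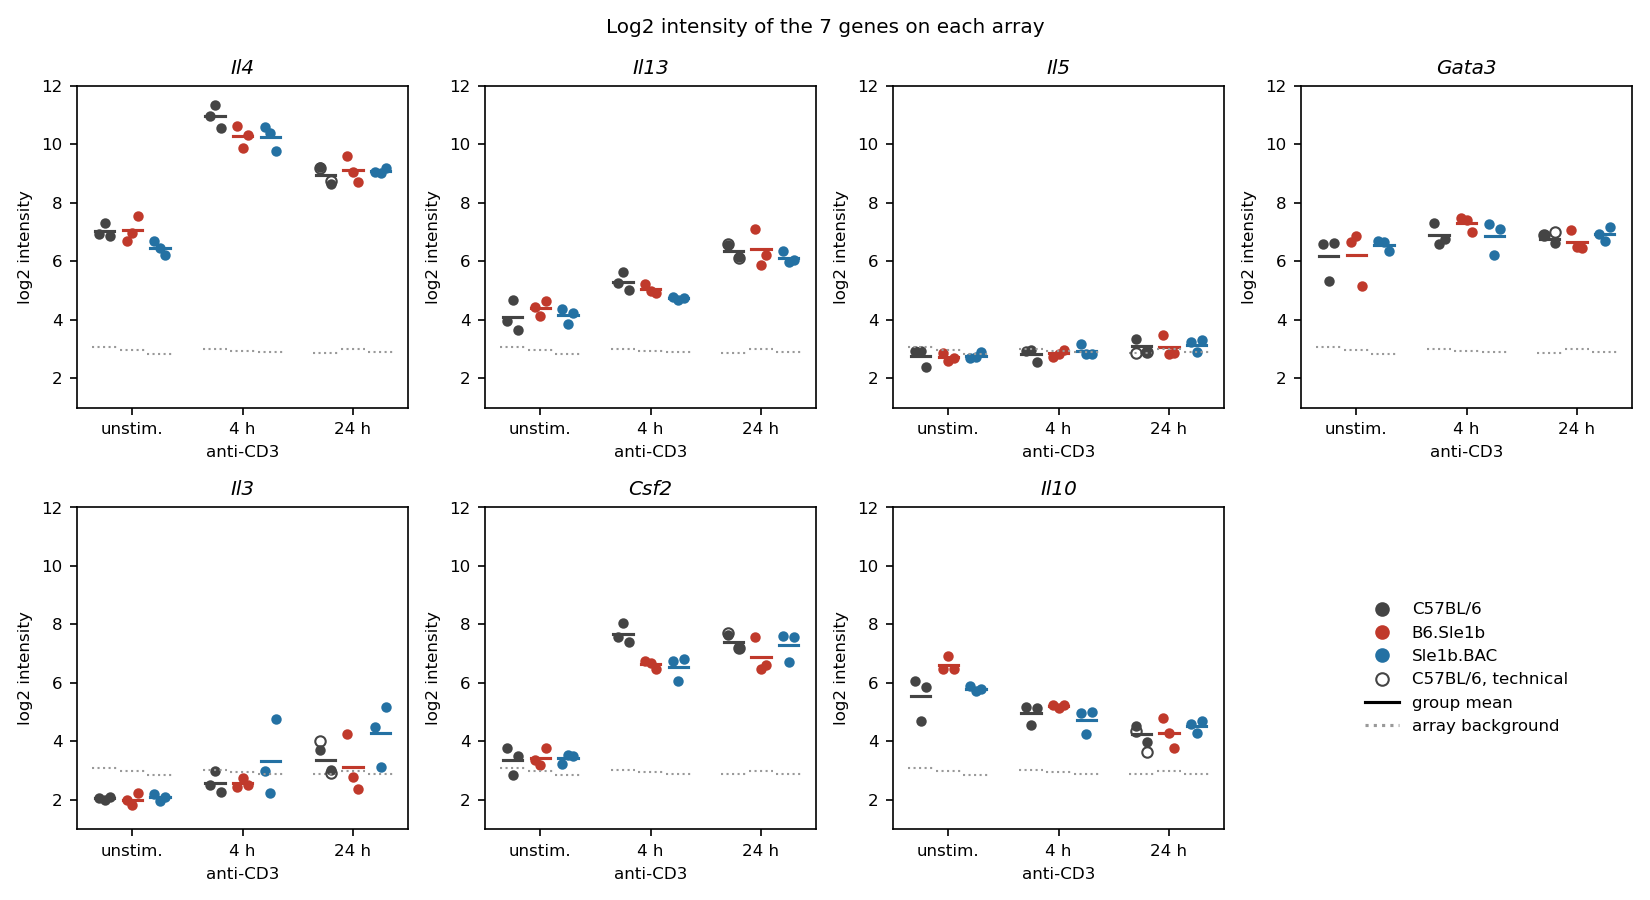
Log2 intensity (vertical axis) of each of the 7 genes on each array, by time on anti-CD3 (horizontal axis) and strain (colour). Points are arrays, short lines are group means, open circles are the technical arrays of C57BL/6 at 24 h, and dotted lines are the background; Il4 is highest at 4 h, Il13 at 24 h and Il10 in unstimulated cells, while Il5 stays near the background.

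Il4 encodes the cytokine that gives B cells the signal to switch to IgE and that starts Th2 differentiation. In unstimulated cells its arrays read 6.94, 7.30 and 6.87 in C57BL/6, 6.69, 6.97 and 7.55 in B6.Sle1b, and 6.70, 6.46 and 6.21 in Sle1b.BAC. At 4 h they read 10.97, 11.35 and 10.55 in C57BL/6, 10.64, 9.88 and 10.31 in B6.Sle1b, and 10.61, 10.39 and 9.78 in Sle1b.BAC. At 24 h they read 9.22 and 8.66 in C57BL/6, 9.62, 9.06 and 8.72 in B6.Sle1b, and 9.07, 9.02 and 9.18 in Sle1b.BAC. In each strain every 4 h array lay above every 24 h array, and every 24 h array above every unstimulated one. At 4 h Il4 had risen by 3.92 ± 0.27 in C57BL/6 (15.2-fold, adjusted p = 2.15e-09). The rise was 3.21 ± 0.27 in B6.Sle1b (9.26-fold, adjusted p = 7.1e-08) and 3.80 ± 0.27 in Sle1b.BAC (13.9-fold, adjusted p = 3.88e-09). From 4 h to 24 h Il4 changed by -2.02 ± 0.30 in C57BL/6 (adjusted p = 3.35e-05), by -1.14 ± 0.27 in B6.Sle1b (adjusted p = 0.00267) and by -1.17 ± 0.27 in Sle1b.BAC (adjusted p = 0.00209). Of the times measured it was highest at 4 h in all strains, and at 24 h it remained 3.74-fold, 4.19-fold and 6.20-fold above unstimulated cells in C57BL/6, B6.Sle1b and Sle1b.BAC. In the order of the 9 group means, the 3 groups at 4 h came first, then those at 24 h, then the unstimulated ones. Arrays of neighbouring groups overlapped within each time, except for unstimulated Sle1b.BAC, whose arrays lay under those of its neighbour C57BL/6.

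Il13, the neighbour of Il4 and the cytokine of mucus and airway responses, kept another time course. Unstimulated arrays read 3.95, 4.69 and 3.64 in C57BL/6, 4.43, 4.13 and 4.65 in B6.Sle1b, and 4.38, 3.87 and 4.24 in Sle1b.BAC. At 4 h they read 5.28, 5.65 and 5.0 in C57BL/6, 5.22, 4.99 and 4.92 in B6.Sle1b, and 4.79, 4.68 and 4.75 in Sle1b.BAC. At 24 h they read 6.56 and 6.14 in C57BL/6, 7.12, 5.88 and 6.22 in B6.Sle1b, and 6.36, 5.96 and 6.04 in Sle1b.BAC. The arrays of the 3 times did not overlap within any strain, and here the 24 h arrays were the highest. At 24 h Il13 had risen by 2.26 ± 0.30 in C57BL/6 (4.78-fold, adjusted p = 4.17e-06). The rise was 2.01 ± 0.27 in B6.Sle1b (adjusted p = 3.81e-06) and 1.96 ± 0.27 in Sle1b.BAC (adjusted p = 4.42e-06). From 4 h to 24 h it rose by 1.04 ± 0.30 in C57BL/6 (adjusted p = 0.0154), by 1.37 ± 0.27 in B6.Sle1b (adjusted p = 4.53e-04) and by 1.38 ± 0.27 in Sle1b.BAC (adjusted p = 3.61e-04). Il4 fell over the same interval in all 3 strains. At 4 h Il13 was called only in C57BL/6 (1.22 ± 0.27, 2.32-fold, adjusted p = 0.00516), and in B6.Sle1b and Sle1b.BAC it differed by 0.64 ± 0.27 (adjusted p = 0.235) and 0.57 ± 0.27 (adjusted p = 0.198). The difference of these responses from that of C57BL/6 was not called either. With array weights, however, Il13 was called at 4 h in B6.Sle1b (0.66, adjusted p = 0.0137), and its 4 h response was called smaller there than in C57BL/6 (-1.03, adjusted p = 0.0383, beside -0.58 in the fit without weights). In the order of means the 3 groups at 24 h came first, then those at 4 h, and arrays of neighbours overlapped except between times and between B6.Sle1b and Sle1b.BAC at 4 h. The 4 h call in C57BL/6 was lost when only the 2 groups compared were fitted (adjusted p = 0.0849). The change from 4 h to 24 h in C57BL/6 lost its call without C57BL/6 4 h array 3 (0.89, adjusted p = 0.0754), without C57BL/6 24 h array 1 (0.83, adjusted p = 0.204) or after a further quantile normalization (adjusted p = 0.0575).

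Il5, which encodes the growth factor of eosinophils, gave little signal. Its 26 values lay between 2.39 and 3.49 with a median of 2.88, and only 8 arrays read above their background. The largest difference from unstimulated cells was 0.39 ± 0.18 at 24 h in Sle1b.BAC (adjusted p = 0.134, and 0.032 when only the 2 groups compared were fitted). With array weights Il5 was called higher at 24 h in Sle1b.BAC (0.43, adjusted p = 0.0171) and in C57BL/6 (0.55, adjusted p = 0.0396). Neighbouring groups overlapped throughout, so close to the background.

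Gata3, the factor that holds the Th2 locus open and that CD4+ T cells need for their development, was above background on all 26 arrays, between 5.15 and 7.47. Unstimulated arrays read 6.60, 5.32 and 6.63 in C57BL/6, 6.67, 6.86 and 5.15 in B6.Sle1b, and 6.71, 6.66 and 6.35 in Sle1b.BAC. At 4 h they read 7.32, 6.58 and 6.78 in C57BL/6, 7.47, 7.42 and 7.01 in B6.Sle1b, and 7.28, 6.21 and 7.11 in Sle1b.BAC. At 24 h they read 6.89 and 6.63 in C57BL/6, 7.09, 6.50 and 6.45 in B6.Sle1b, and 6.95, 6.70 and 7.16 in Sle1b.BAC. The lowest arrays of C57BL/6 unstimulated, B6.Sle1b unstimulated and Sle1b.BAC 4 h were the 3 dim arrays named above. Arrays of neighbouring groups overlapped along the whole order of means. The 4 h difference was 0.71 ± 0.38 in C57BL/6 (adjusted p = 0.413), 1.07 ± 0.38 in B6.Sle1b (adjusted p = 0.129) and 0.29 ± 0.38 in Sle1b.BAC (adjusted p = 0.701). With the brightness of the array as a covariate Gata3 was called higher in all 6 comparisons with unstimulated cells. The values were then 0.79, 1.14 and 0.73 at 4 h in C57BL/6, B6.Sle1b and Sle1b.BAC, and 0.61, 0.97 and 0.62 at 24 h, with adjusted p between 1.12e-05 and 0.00672. Without the 3 dim arrays none of the 6 was called, and the values were 0.28, 0.53 and 0.62 at 4 h and 0.15, -0.09 and 0.37 at 24 h, with adjusted p between 0.0636 and 0.77. In C57BL/6 and B6.Sle1b these differences were thus smaller than in the fit of all arrays, and that of B6.Sle1b at 24 h changed sign. The 4 h difference in B6.Sle1b was also called with array weights (0.75, adjusted p = 0.00282) and after a further quantile normalization (1.10, adjusted p = 0.00673). From 4 h to 24 h Gata3 differed by -0.13 ± 0.43 in C57BL/6, -0.62 ± 0.38 in B6.Sle1b (adjusted p = 0.286) and 0.07 ± 0.38 in Sle1b.BAC. That of B6.Sle1b was called without the 3 dim arrays (-0.62, adjusted p = 0.0152), with array weights (-0.69, adjusted p = 0.0134) and with only the groups compared (adjusted p = 0.0436).

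Csf2 encodes GM-CSF, the growth and activation factor of granulocytes and macrophages. In unstimulated cells it read 3.77, 2.85 and 3.49 in C57BL/6, 3.36, 3.19 and 3.77 in B6.Sle1b, and 3.23, 3.53 and 3.49 in Sle1b.BAC, close to the background. At 4 h it read 7.57, 8.06 and 7.38 in C57BL/6, 6.75, 6.69 and 6.48 in B6.Sle1b, and 6.76, 6.07 and 6.82 in Sle1b.BAC. At 24 h it read 7.62 and 7.18 in C57BL/6, 7.57, 6.46 and 6.62 in B6.Sle1b, and 7.60, 6.71 and 7.57 in Sle1b.BAC. All 17 stimulated arrays lay more than 2 log2 units above every unstimulated array, and those of 4 h and 24 h overlapped within each strain. Among the stimulated groups all neighbours in the order of means overlapped, from C57BL/6 at 4 h, the highest, to Sle1b.BAC at 4 h, the lowest. At 4 h Csf2 had risen by 4.30 ± 0.30 in C57BL/6 (19.7-fold, adjusted p = 2.15e-09), 3.20 ± 0.30 in B6.Sle1b (9.21-fold, adjusted p = 2.58e-07) and 3.13 ± 0.30 in Sle1b.BAC (8.75-fold, adjusted p = 2.7e-07). At 24 h it was 4.03 ± 0.33 in C57BL/6 (16.3-fold, adjusted p = 6.05e-09), 3.45 ± 0.30 in B6.Sle1b (10.9-fold, adjusted p = 7.53e-09) and 3.88 ± 0.30 in Sle1b.BAC (14.7-fold, adjusted p = 1.11e-09). Unlike Il4, Csf2 was not called between 4 h and 24 h in any strain, with differences of -0.27 ± 0.33 (95% interval -0.96 to 0.42) in C57BL/6, 0.24 ± 0.30 (-0.38 to 0.86) in B6.Sle1b and 0.75 ± 0.30 (0.13 to 1.37, adjusted p = 0.0747) in Sle1b.BAC. This last difference was called with the replicate number as a block (adjusted p = 0.0464), without B6.Sle1b 24 h array 1 (adjusted p = 0.0425) and without Sle1b.BAC 24 h array 2 (1.04, adjusted p = 0.0168).

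Il3, the next gene on the chromosome, encodes a growth factor of mast cells and basophils. All 9 unstimulated arrays read between 1.82 and 2.22, under the background. At 4 h the arrays read 2.5, 2.98 and 2.26 in C57BL/6, 2.44, 2.76 and 2.51 in B6.Sle1b, and 2.98, 2.24 and 4.75 in Sle1b.BAC. At 24 h they read 3.70 and 3.03 in C57BL/6, 4.25, 2.79 and 2.36 in B6.Sle1b, and 4.51, 3.13 and 5.18 in Sle1b.BAC. Only 8 of the 26 arrays lay above their background, and the highest were array 3 of Sle1b.BAC at 24 h and at 4 h. The only comparison in which Il3 was called was 24 h against unstimulated in Sle1b.BAC, at 2.18 ± 0.51 (at least 2.70-fold, against the background of the unstimulated arrays, adjusted p = 0.00187). At 4 h it differed there by 1.23 ± 0.51 (adjusted p = 0.14), by 1.77 without 4 h array 2 (adjusted p = 0.0411) and by 0.52 without array 3 of both times. Between 4 h and 24 h it differed by 0.95 ± 0.51 (adjusted p = 0.221), and was called without 4 h array 3 (1.66, adjusted p = 0.0119) or 24 h array 2 (1.52, adjusted p = 0.0369). In C57BL/6 and B6.Sle1b the 24 h difference from unstimulated cells was 1.32 ± 0.57 (adjusted p = 0.109) and 1.12 ± 0.51 (adjusted p = 0.113), and neighbouring stimulated groups overlapped. Without array 3 of Sle1b.BAC at both times, the Sle1b.BAC difference was 1.73 (adjusted p = 0.00362), and those of C57BL/6 and B6.Sle1b were called too (adjusted p = 0.0253 and 0.0301). The C57BL/6 difference was also called without only the 4 h one (adjusted p = 0.0442), with only the groups compared (adjusted p = 0.0113) and with array weights (1.29, adjusted p = 0.0358). Calls came as well with all 28 arrays (1.37, adjusted p = 0.0297) and with the technical arrays averaged as 1 array (1.35, adjusted p = 0.0468). Both of these fits count technical arrays as replicates. The B6.Sle1b difference was also called with array brightness as a covariate (1.30, adjusted p = 0.0467) and with array weights (1.25, adjusted p = 0.00329). The 24 h response of Il3 was not called different between any 2 strains.

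The array with the most Il3 also carried the most RNA of basophil and mast cell genes, of which 8 were tested. Fcer1a and Ms4a2, which encode the alpha and beta chains of the high-affinity IgE receptor, and Cma1, a mast cell protease, lay at background in all unstimulated and 4 h groups. Cma1 lay at background at 24 h in B6.Sle1b and Sle1b.BAC as well. The summed intensity of the 8 genes was 125 to 176 over the unstimulated arrays and 107 to 153 over the 4 h arrays. At 24 h it was 149 to 181 in C57BL/6, 171 to 203 in B6.Sle1b and 184 to 412 in Sle1b.BAC. The third Sle1b.BAC array at 24 h held the highest sum, with 7.25 for the basophil protease gene Mcpt8 and 5.30 for Fcer1a beside 5.18 for Il3. The third Sle1b.BAC array at 4 h, next highest for Il3 at 4.75, had a sum of 153. That was under the 176 of unstimulated Sle1b.BAC array 3, where Il3 read 2.11. By the mean log2 of the 8 genes these arrays were alike, at 4.08 and 4.08. Fcer1a, Cma1, Hdc and Ms4a2 (3.52, over a background of 2.89, beside 2.71) read higher on the 4 h array. Mcpt8, Cpa3, Gata2 and Kit (4.55 beside 5.44) read lower on it. In C57BL/6 at 24 h array 1 had more Il3 than array 2 (3.70 and 3.03) and the lower sum (149 and 181). At 24 h against unstimulated, 5 of the 8 were called higher and 1 lower in Sle1b.BAC (17.2% and 11.9% of all genes), 3 and 2 in B6.Sle1b (14.8% and 13.4%), and 1 and 1 in C57BL/6 (15.7% and 8.6%), with medians of 0.92, 0.56 and 0.65. Mcpt8 rose by 1.87 ± 0.44 in Sle1b.BAC (adjusted p = 0.00189). Kit, the stem cell factor receptor, fell in every strain, by 1.51 ± 0.31 in Sle1b.BAC (adjusted p = 5.24e-04), 1.56 ± 0.31 in B6.Sle1b and 1.08 ± 0.35 in C57BL/6, and Hdc, which encodes the enzyme that makes histamine, fell in B6.Sle1b by 0.74 ± 0.23 (adjusted p = 0.0197). Over the 26 arrays the mean log2 of the 8 genes had r = 0.69 with Il3, 0.48 with Il13 and 0.47 with Il5. It had r = 0.24 with Csf2, 0.12 with Gata3, -0.11 with Il4 and -0.24 with Il10. These points share arrays, groups and normalization. The part of such cells in the Il3 signal was not tested. Of 4 tested eosinophil genes Epx, Siglecf and Ccr3 lay at background in all groups. The fourth, Prg2, which encodes a granule protein, was above background in 7 of the 9 groups and was called lower at 24 h in every strain.

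**Figure D2:**
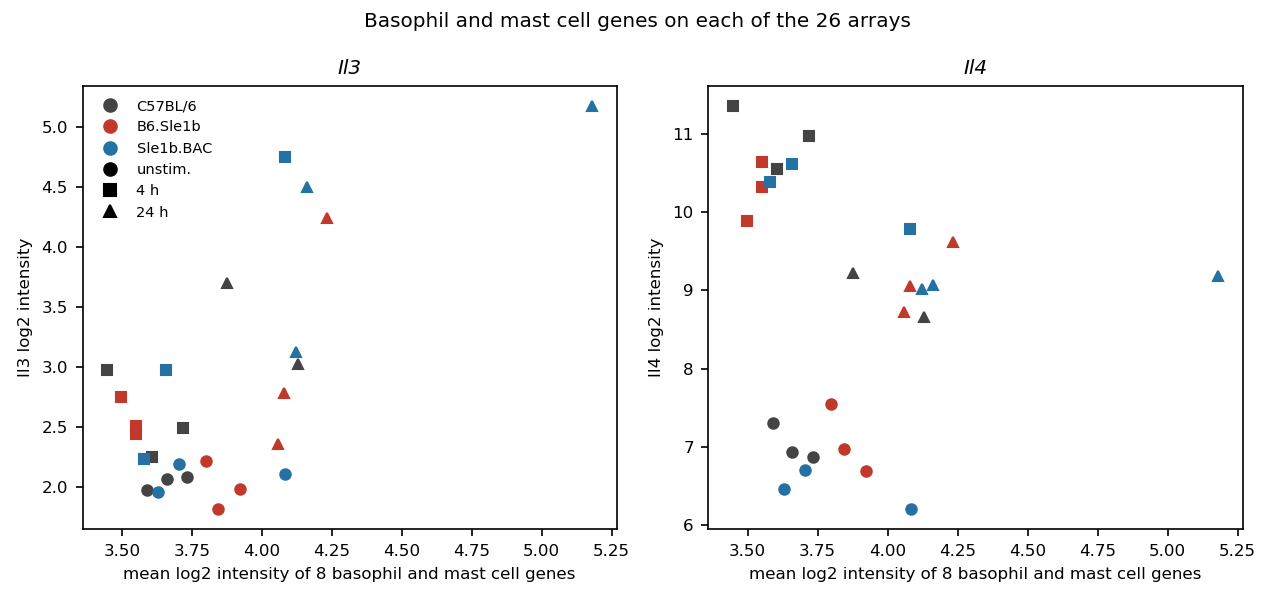
Log2 intensity of Il3 (left) and Il4 (right) on each of the 26 arrays (vertical axes) against the mean log2 intensity of 8 basophil and mast cell genes (horizontal axes), with strain as colour and time as symbol. The third Sle1b.BAC array at 24 h lies at the upper right for Il3, at 5.18, and within its group for Il4, at 9.18.

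Il10 was the 1 gene of the 7 called lower after stimulation. Unstimulated arrays read 6.08, 4.71 and 5.84 in C57BL/6, 6.48, 6.93 and 6.46 in B6.Sle1b, and 5.88, 5.71 and 5.79 in Sle1b.BAC. At 4 h they read 5.17, 4.55 and 5.15 in C57BL/6, 5.23, 5.15 and 5.24 in B6.Sle1b, and 4.97, 4.26 and 4.99 in Sle1b.BAC. At 24 h they read 4.52 and 3.98 in C57BL/6, 4.80, 4.30 and 3.79 in B6.Sle1b, and 4.60, 4.28 and 4.70 in Sle1b.BAC. In B6.Sle1b the 3 times did not overlap, in Sle1b.BAC all stimulated arrays lay under the unstimulated ones, and in C57BL/6 the second unstimulated array, 1 of the 3 dim ones, lay among the 4 h arrays. At 24 h Il10 had fallen by 2.33 ± 0.29 in B6.Sle1b (5.02-fold lower, adjusted p = 1.7e-06). In C57BL/6 it fell by 1.29 ± 0.33 (2.45-fold lower, adjusted p = 0.00456) and in Sle1b.BAC by 1.27 ± 0.29 (2.41-fold lower, adjusted p = 0.00167). At 4 h it fell by 1.42 ± 0.29 in B6.Sle1b (adjusted p = 0.00367) and by 1.05 ± 0.29 in Sle1b.BAC (adjusted p = 0.0227). In C57BL/6 the 4 h difference was -0.59 ± 0.29 (adjusted p = 0.352). Without the dim C57BL/6 unstimulated array 2 it was -1.0 (adjusted p = 0.0175). From 4 h to 24 h only B6.Sle1b was called, where Il10 fell by 0.91 ± 0.29 (adjusted p = 0.0256). The difference was -0.71 ± 0.33 in C57BL/6 (adjusted p = 0.168) and -0.21 ± 0.29 in Sle1b.BAC (adjusted p = 0.726). That of C57BL/6 was called after a further quantile normalization (-0.86, adjusted p = 0.0349) and with array brightness as a covariate (-0.73, adjusted p = 0.0157). It was also called without the 3 dim arrays (-0.71, adjusted p = 0.0299). All 28 arrays gave a call too (-0.83, adjusted p = 0.0292), but that fit counts the technical arrays as replicates. In the order of means unstimulated B6.Sle1b stood first without overlap, and all later neighbours overlapped.

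Several Il10 calls lay close to the threshold, and some were lost with an array left out while the difference stayed about as large. The 24 h call in C57BL/6 was lost without C57BL/6 24 h array 2 (-1.02, adjusted p = 0.098) and when only the 2 groups compared were fitted (adjusted p = 0.1). The 4 h call in Sle1b.BAC was lost without Sle1b.BAC unstimulated array 1, 2 or 3, with differences of -1.01, -1.10 and -1.06 (adjusted p = 0.0838, 0.0562 and 0.0549) beside -1.05 with all arrays, and without its 4 h array 2 (-0.81, adjusted p = 0.156). The call from 4 h to 24 h in B6.Sle1b was lost without its 4 h array 1, 2 or 3, with differences of -0.90, -0.94 and -0.89 (adjusted p = 0.0672, 0.0535 and 0.0648) beside -0.91 with all arrays. It was also lost without its 24 h array 2 (-0.91, adjusted p = 0.0585) or 3 (-0.66, adjusted p = 0.171) and with 16 added before log2 (-0.56, adjusted p = 0.0528). Regulatory T cells are a known source of IL-10, and of their 5 tested markers Ctla4 and Ikzf2 fell at 24 h in all 3 strains while Il2ra, which activated T cells express as well, rose. In Sle1b.BAC Ctla4 changed by -2.02 ± 0.14, in C57BL/6 by -2.51 ± 0.16 and in B6.Sle1b by -2.51 ± 0.14. Foxp3, the defining factor of these cells, differed at 24 h by -0.03 ± 0.42 in C57BL/6 and was not called. In the other strains it differed by -0.39 ± 0.38 and -0.42 ± 0.38 and was not called either. The summed intensity of the 5 markers was 1270 to 2061 over unstimulated arrays, 1173 to 1790 over 4 h arrays and 645 to 963 over 24 h arrays. Their mean log2, in which each marker counts alike, overlapped between unstimulated (6.46 to 7.46) and 24 h arrays (6.57 to 7.08) and was 7.23 to 8.07 at 4 h. Their part in the Il10 change was not tested.

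**Figure D3:**
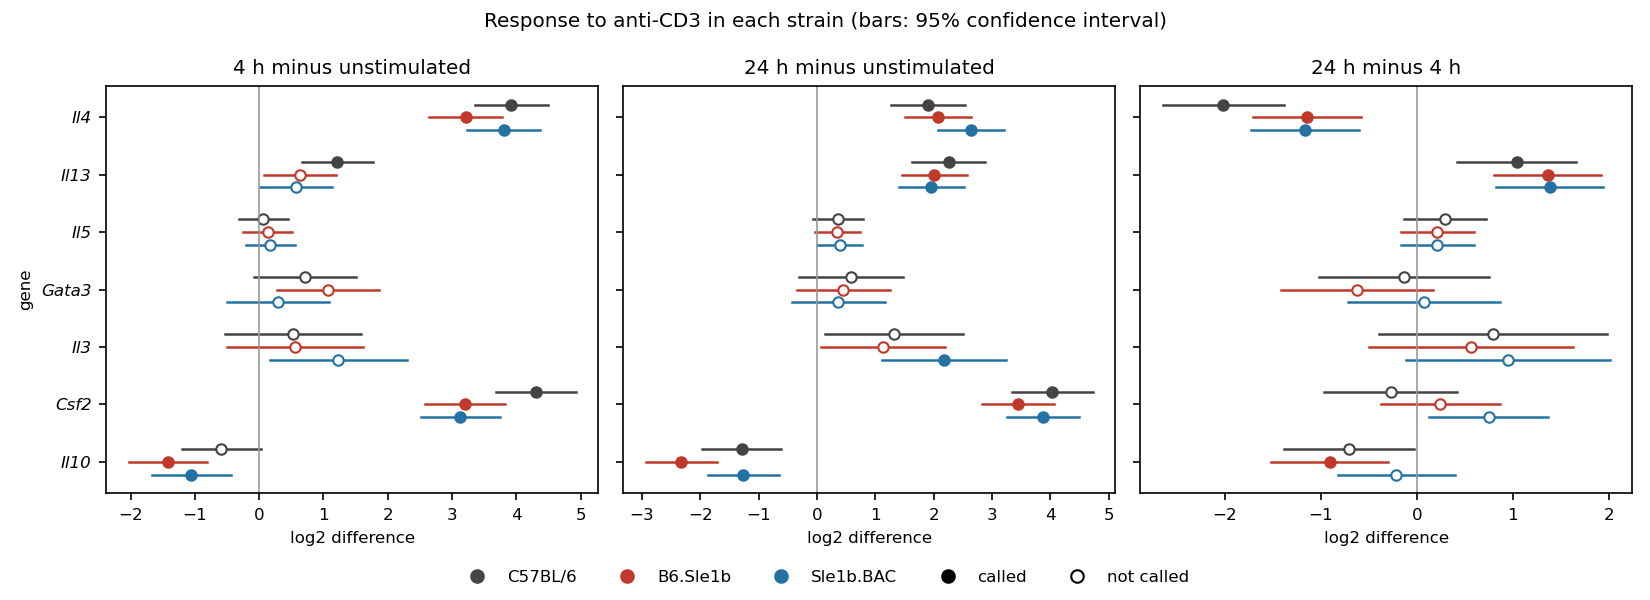
Difference in log2 intensity between times (horizontal axes) for each of the 7 genes in each strain (colour), with 95% confidence intervals as bars; filled points have an adjusted p under 0.05. Il4 lies right of 0 at 4 h and 24 h and left of 0 between them, Il13 lies right of 0 between 4 h and 24 h, and Il10 lies left of 0.

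At 24 h the arrays of a group tended to rank alike across these genes. Array 1 was highest for 7 of the 7 genes in C57BL/6, which had 2 arrays, and in B6.Sle1b. In Sle1b.BAC array 2 was lowest for 7 of 7, and array 3 highest for 5. The 75th percentiles of intensity were 46.8 and 39.5 in C57BL/6, 39.8, 40.6 and 35.6 in B6.Sle1b, and 43.2, 43.1 and 46.9 in Sle1b.BAC. Over all 26 arrays Il4 and Csf2 had the highest r among the 21 pairs of these genes (0.88), followed by Il13 and Csf2 (0.78), and Il13 and Il10 the lowest (-0.73). These correlations mix time, strain and array, which all genes share.

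By r over the 26 arrays among 12568 genes above background in some group, the 3 genes most like Il4 were Calhm6 (0.96), Parp9 (0.95) and Gbp10 (0.95), of which the last is an interferon-induced GTPase gene. Those most like Csf2 were Tnfsf10 (0.96), the gene of the death ligand TRAIL, Sting1 (0.96) and the chemokine gene Ccl3 (0.96). For Il13 they were Ebna1bp2 (0.96), Rpl7l1 (0.95) and Polr2f (0.95), where the first is a ribosome assembly gene and the last encodes a subunit of RNA polymerases. Il13 thus had other nearest genes than Il4, its neighbour on the chromosome. Those most like Il10 were Impact (0.93), Cwc25 (0.93) and Osbpl3 (0.92), and those most like Gata3 were Cyfip2 (0.93), C2cd3 (0.93) and Asb7 (0.92). For Il3 they were the chemokine gene Ccl6 (0.85), the lipase gene Lpl (0.85) and Ms4a2 (0.83). For Il5, mostly at background, the highest r was 0.75.

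The question whether the Sle1b interval or the added chromosome changed these genes was asked at each time, over the mean of the 3 times, and for the responses to anti-CD3. No strain difference of the 7 genes was called. Of 63 tests at single times 0 were called and 10 had an unadjusted p under 0.05, with a lowest adjusted p of 0.253. Among all genes, the called share was 0.123% for B6.Sle1b against C57BL/6 in unstimulated cells, 0.0409% at 4 h and 0.0409% at 24 h. For Sle1b.BAC against C57BL/6 it was 0.0585%, 0.0643% and 0.0351%, and for Sle1b.BAC against B6.Sle1b 0.0819%, 0% and 0%. Over the mean of the times 0 of 21 tests were called and 6 had an unadjusted p under 0.05, with called shares among all genes of 0.333%, 0.228% and 0.0819% for these pairs in the same order. An unadjusted p under 0.05 was there found for 873, 1172 and 1041 of the 17097 genes. Of 42 differences between responses 0 were called and 4 had an unadjusted p under 0.05. Such a p was found for 315 to 903 of the 17097 genes in a comparison of responses. The called share of all genes there was 0.00585% for the 24 h response of Sle1b.BAC against B6.Sle1b and 0% for the other 5.

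**Figure D4:**
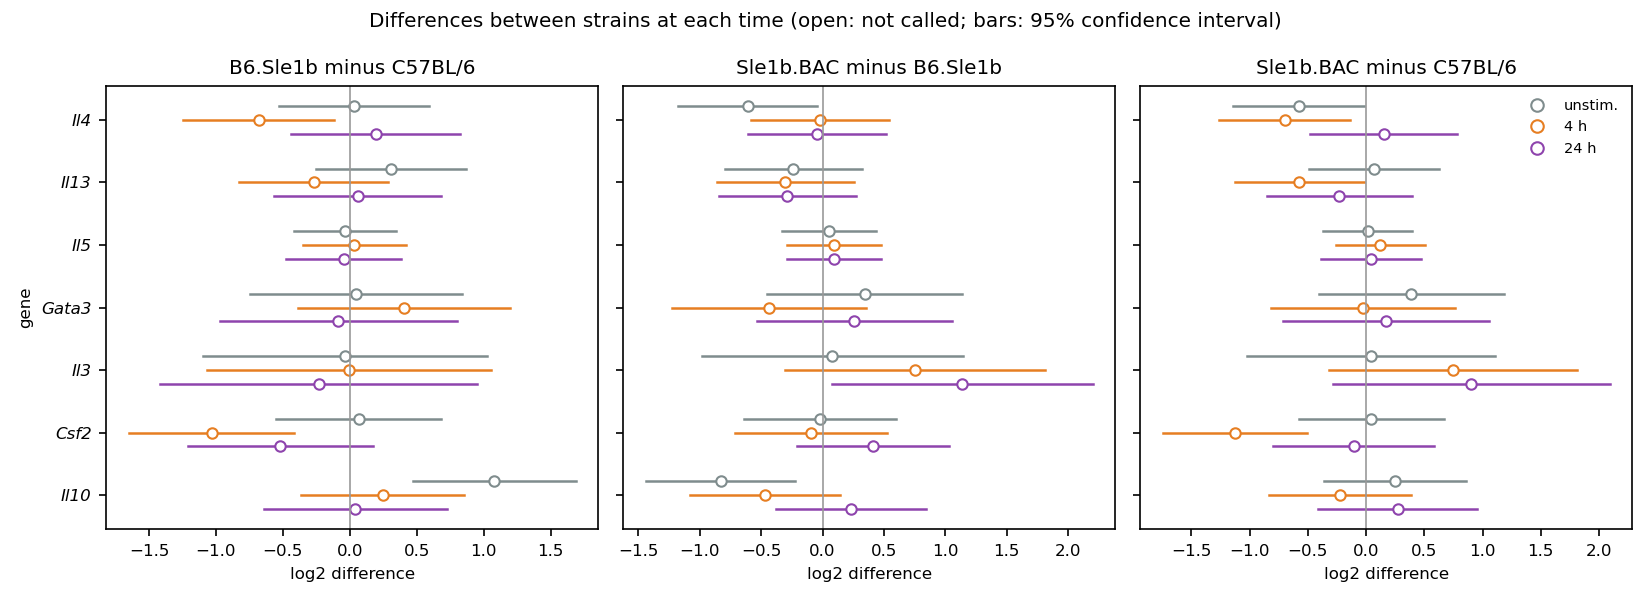
Difference in log2 intensity between strains (horizontal axes) for each of the 7 genes at each time (colour), with 95% confidence intervals as bars; all points are open because none has an adjusted p under 0.05. Csf2 at 4 h lies left of 0 in both comparisons with C57BL/6, and Il10 in unstimulated cells lies right of 0 in B6.Sle1b against C57BL/6.

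Csf2 differed most at 4 h. B6.Sle1b lay 1.03 ± 0.30 under C57BL/6 (95% interval of the difference -1.65 to -0.41, adjusted p = 0.718) and Sle1b.BAC 1.13 ± 0.30 under it (-1.75 to -0.51, adjusted p = 0.253). All 3 C57BL/6 arrays were above all 6 arrays of the other strains, and both comparisons share the C57BL/6 arrays. The summed intensity of 7 tested B cell markers separated the same 4 h arrays, at 428 to 611 in C57BL/6, 218 to 359 in B6.Sle1b and 290 to 384 in Sle1b.BAC. It did so in unstimulated cells too (472 to 647, 285 to 425 and 301 to 437), where Csf2 was close to the background and its arrays overlapped. By the mean log2 of these markers, unstimulated C57BL/6 (5.0 to 5.39) and B6.Sle1b arrays (4.63 to 5.01) overlapped. At 4 h this mean was 4.97 to 5.25 in C57BL/6, 4.33 to 4.96 in B6.Sle1b and 4.61 to 4.76 in Sle1b.BAC. Of the 7 markers, 5 lay above background in each unstimulated group and 6 in each group at 4 h and 24 h. Pax5, a defining B cell factor, lay at background in all 9 groups, and Fcer2a in the unstimulated ones. The part of B cells in the Csf2 difference was not tested. B6.Sle1b and Sle1b.BAC differed from each other by -0.09 ± 0.30 (-0.71 to 0.53). The 4 h response of Csf2 was smaller than in C57BL/6 by 1.10 ± 0.42 in B6.Sle1b (adjusted p = 1) and by 1.17 ± 0.42 in Sle1b.BAC (adjusted p = 0.874), and neither difference was called. Sle1b.BAC against C57BL/6 was called with array brightness as a covariate (-1.12, adjusted p = 0.041), and B6.Sle1b against C57BL/6 with array weights (-1.15, adjusted p = 0.0225). At 24 h the Csf2 arrays of C57BL/6 overlapped those of both other strains.

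Il10 differed most in unstimulated cells, where B6.Sle1b lay 1.08 ± 0.29 above C57BL/6 (95% interval 0.47 to 1.69, adjusted p = 0.344) and Sle1b.BAC 0.83 ± 0.29 under B6.Sle1b (-1.44 to -0.22, adjusted p = 0.464). Every B6.Sle1b array was above every array of the other strains. Without the dim C57BL/6 unstimulated array 2, the lowest of these arrays, the first difference was 0.66 (adjusted p = 0.881). Array weights gave calls for both (0.64, adjusted p = 0.0115, and -0.70, adjusted p = 0.00265), as did array brightness as a covariate (1.02, adjusted p = 0.0221, and -0.97, adjusted p = 0.0293). Sle1b.BAC and C57BL/6 differed by 0.25 ± 0.29 (-0.36 to 0.86). At 4 h and 24 h the differences of B6.Sle1b from C57BL/6 were 0.25 ± 0.29 and 0.04 ± 0.33. Neutrophil markers varied between the same unstimulated arrays, with a mean log2 over the 6 tested of 3.24 to 4.41 in C57BL/6, 3.86 to 6.06 in B6.Sle1b and 4.23 to 5.96 in Sle1b.BAC, and their part in the Il10 values was not tested. The regulatory T cell marker mean was 6.46 to 7.15, 6.55 to 7.46 and 7.07 to 7.14 in these groups.

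For Il4 the differences between strains were smaller. At 4 h B6.Sle1b lay 0.68 ± 0.27 under C57BL/6 (adjusted p = 1) and Sle1b.BAC 0.70 ± 0.27 under it (adjusted p = 0.645), and the arrays overlapped in both. With array weights the first of these was called (-0.89, adjusted p = 0.0409). In unstimulated cells Sle1b.BAC lay 0.58 ± 0.27 under C57BL/6 (adjusted p = 0.797) with no overlap of arrays. Il13 at 4 h lay 0.57 ± 0.27 lower in Sle1b.BAC than in C57BL/6 (adjusted p = 0.838), again without overlap, and with array weights it was called higher in B6.Sle1b than in C57BL/6 in unstimulated cells (0.65, adjusted p = 0.0238). Il3 at 24 h lay 1.14 ± 0.51 higher in Sle1b.BAC than in B6.Sle1b (adjusted p = 0.896), with overlap. For Gata3 and Il5 no strain difference had an unadjusted p under 0.05.

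Genes that act with these cytokines were counted from lists, one role at a time. For reading those counts, 4.08% of all genes were called higher and 2.97% lower at 4 h in C57BL/6, 2.57% and 3.12% in B6.Sle1b, and 4.22% and 6.35% in Sle1b.BAC. At 24 h the shares were 15.7% and 8.6%, 14.8% and 13.4%, and 17.2% and 11.9%. Of 11 receptor genes 9 were tested. At 4 h 1 of 9 was called higher in each strain, Il4ra, the IL-4 receptor alpha chain, by 1.52 ± 0.28 in C57BL/6 (adjusted p = 9.6e-04), 1.19 ± 0.28 in B6.Sle1b (adjusted p = 0.0102) and 1.11 ± 0.28 in Sle1b.BAC (adjusted p = 0.0116). At 24 h 3, 3 and 4 of 9 were called higher in C57BL/6, B6.Sle1b and Sle1b.BAC and none lower, with list medians of 0.17, 0.21 and 0.21. Csf2rb, the shared beta chain of the GM-CSF, IL-3 and IL-5 receptors, rose by 2.16 ± 0.47, 1.57 ± 0.42 and 1.43 ± 0.42 in the 3 strains, and Csf2rb2, the beta chain specific to IL-3, by 1.04 ± 0.33, 1.01 ± 0.30 and 1.02 ± 0.30. Csf2rb and Csf2rb2 are close in sequence, so their probe sets may share signal. Il5ra was called as well in each strain, from a background level, and Il10ra and Il10rb, the chains of the IL-10 receptor, were not called against unstimulated cells at either time.

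Of 19 tested Th2 regulators, 4 were called higher and 1 lower at 4 h in C57BL/6, 4 and 1 in B6.Sle1b, and 3 and 3 in Sle1b.BAC. At 24 h the counts were 6 and 3, 5 and 5, and 5 and 4, with medians of 0.19, 0.19 and 0.13. Irf4 and Batf, which bind together at cytokine genes, and Gfi1, which supports the growth of Th2 cells, were called higher in every strain at both times. Irf4 rose by 2.10 ± 0.22, 1.79 ± 0.22 and 2.04 ± 0.22 at 4 h in C57BL/6, B6.Sle1b and Sle1b.BAC, and Gfi1 by 2.63 ± 0.33, 2.03 ± 0.30 and 2.34 ± 0.30 at 24 h. Junb, an AP-1 gene of Th2 cells, changed by -1.68 ± 0.28, -1.74 ± 0.25 and -1.41 ± 0.25 at 24 h, and Stat5b, which carries IL-2 signals, changed by -1.33 ± 0.29, -1.57 ± 0.26 and -1.79 ± 0.26. Junb and Stat5b are known as activators of Th2 cytokine genes.

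Of the 10 regulators of Il10 in the list, 2 of which (Irf4 and Batf) rose, 2 were called lower at 24 h in C57BL/6 and 5 in each of the other strains, with medians of -0.19, -0.74 and -0.31. Bhlhe40, a repressor of Il10, changed by -1.46 ± 0.34, -1.76 ± 0.30 and -1.52 ± 0.30, and Ets1 by -0.89 ± 0.18, -1.0 ± 0.16 and -1.14 ± 0.16. Ahr, which can activate Il10, fell by 2.06 ± 0.40 in B6.Sle1b, fell by 1.45 ± 0.40 in Sle1b.BAC and differed by -1.04 ± 0.45 in C57BL/6 (adjusted p = 0.108). Maf, an activator of both Il4 and Il10, fell by 1.48 ± 0.33 in B6.Sle1b (adjusted p = 0.00131) and by 0.88 ± 0.33 in Sle1b.BAC (adjusted p = 0.0499), and differed by -0.85 ± 0.37 in C57BL/6 (adjusted p = 0.111). The list therefore held both activators and repressors among the genes that fell.

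Among 10 tested Th2 surface and effector genes, 3 were called higher at 24 h in each strain, while 0, 1 and 2 were called lower. Ecm1, an extracellular matrix gene that Th2 cells use to leave lymph nodes, rose at both times, by 2.33 ± 0.31, 2.08 ± 0.31 and 1.35 ± 0.31 at 4 h. Il9, the mast cell growth factor gene, was at background in unstimulated cells and rose at 24 h by at least 4.27-fold in C57BL/6, 2.92-fold in B6.Sle1b and 4.33-fold in Sle1b.BAC. The response was not limited to Th2 genes. Of 9 tested cytokines and regulators of other lineages, 5, 5 and 6 were called higher at 4 h and 6, 7 and 7 at 24 h, none lower, with medians at 24 h of 2.24, 1.77 and 2.13. Ifng, the Th1 cytokine, rose at 24 h by 3.0 ± 0.34, 2.88 ± 0.30 and 3.83 ± 0.30, Il2 by 3.59 ± 0.41, 3.45 ± 0.36 and 3.73 ± 0.36, and Tbx21, the Th1 regulator gene, by 3.24 ± 0.50, 2.55 ± 0.44 and 3.19 ± 0.44.

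Along chromosome 11 the genes around the cytokine cluster did not all follow it. Of 15 tested neighbours, 3 were called higher and 1 lower at 4 h in C57BL/6, 1 and 0 in B6.Sle1b, and 1 and 1 in Sle1b.BAC, with medians of 0.11, 0.02 and -0.15. At 24 h 4 and 1, 4 and 1, and 4 and 2 were called, with medians of 0.24, 0.10 and 0.07. Rad50, which encodes a DNA repair protein and whose gene body holds the Th2 locus control region, was not called at 4 h and rose by 0.96 ± 0.21, 0.88 ± 0.19 and 0.79 ± 0.19 at 24 h. Kif3a, a kinesin gene on the other side of Il4, was called at neither time in any strain. Irf1, an interferon-response factor gene between Il5 and Csf2, rose at 4 h by 1.16 ± 0.18 in C57BL/6 and 0.85 ± 0.18 in Sle1b.BAC, and differed by 0.57 ± 0.18 in B6.Sle1b (adjusted p = 0.0815). Pdlim4, a cytoskeletal gene nearer Csf2, rose at 24 h by 2.83 ± 0.32, 2.22 ± 0.29 and 1.38 ± 0.29. Of the 6 tested neighbours of Il10 on chromosome 1, 1 was called at 24 h in each strain, Eif2d, a translation factor gene, which rose by 1.02 ± 0.18, 0.84 ± 0.16 and 0.88 ± 0.16 while Il10 fell.

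**Figure D5:**
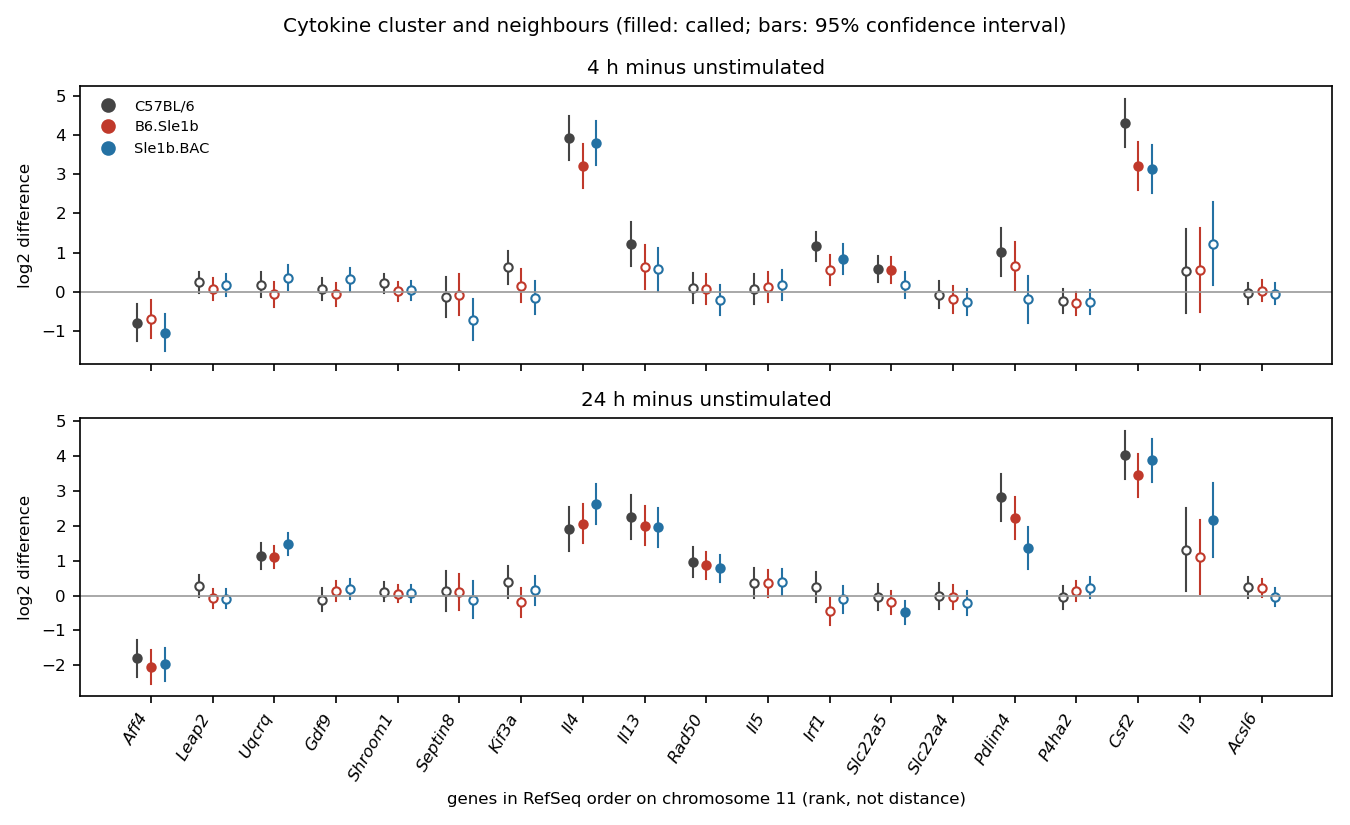
Difference in log2 intensity from unstimulated cells (vertical axes) at 4 h (upper) and 24 h (lower) for the cytokine genes of chromosome 11 and the genes around them, in RefSeq gene order and not to distance, by strain (colour), with 95% confidence intervals as bars and filled points for an adjusted p under 0.05. Kif3a, near 0, stands beside Il4, and P4ha2, near 0, beside Csf2, while the cytokine genes Il13 and Il3 stand on their other sides.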

How the data were processed

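Each of 28 RNA samples was measured on its own Affymetrix HT MG-430 PM array. The deposited table gives linear intensity for 45141 probe sets, made by the authors with RMA per the submitters' processing notes; the version is not given in the sources used here. Log2 was taken with nothing added and no gene removed. The number of arrays limits the precision. The 2 technical arrays, whose RNA the labels do not name, entered alternatives only, and 0 columns stayed unmapped.

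The platform table gave 1 symbol to 28898 probe sets, several to 551 and none to 15692. The brightest probe set stood for each of 17097 genes. limma 3.58.1 in R 4.3.3 fitted 26 arrays with 9 group means and 27 contrasts, with eBayes; adjusted p-values are Benjamini-Hochberg over all genes, called under 0.05. Where a group mean lay at or under background, a fold is given only as a bound against background. The fit was tested on simulated data.

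The 7 genes and the lists were chosen with earlier results of these data known. Text names all 7 and, from each list, up to 4 called genes by smallest adjusted p, with a few others for their role or position, chosen after their values were seen; likeness is by the 3 highest Pearson r. Replicate numbers were not taken as pairs: deviations of same-numbered arrays of a strain correlated above 0.1 in 15 of 25 pairs (-0.36 to 0.82). In B6.Sle1b all these pairs were positive (0.14 to 0.73), while C57BL/6 (-0.29 to 0.82) and Sle1b.BAC (-0.36 to 0.47) were mixed. Same-numbered samples, above all in B6.Sle1b, may thus be related, which the p-values do not take into account. No coordinates of probes were used. Promoter windows are RefSeq's, build GRCm38.p6, cut to the 250 bases before the start; Il10 had no entry. Alternatives were other normalizations, samples, weights, covariates, an added 16 before log2, a filter on dim genes, probe set means, the technical arrays, a replicate block and leaving out arrays.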

Additional observations from a re-analysis of the deposited data

Results flagged for a closer look

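The 2 arrays of C57BL/6 at 24 h titled technical entered no comparison. By their title they may repeat RNA already measured on the biological arrays, so their likeness to those arrays is no independent support for a response. Against the mean of the unstimulated C57BL/6 arrays their mean lay higher by 1.94 for Il4, 2.27 for Il13, 0.77 for Gata3, 1.42 for Il3 and 4.08 for Csf2 on the log2 scale, with both technical arrays above all 3 unstimulated ones for each of these genes. They read 9.20 and 8.75 for Il4, 7.72 and 7.18 for Csf2, and 4.01 and 2.91 for Il3, close to the 2 biological arrays of that group. Il10 read 4.37 and 3.64 on them, under all unstimulated arrays. For Gata3 the unstimulated mean includes the dim array 2, at 5.32, and Gata3 was not called at 24 h in C57BL/6.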

How the results depend on the processing

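Each of the 189 differences of the 7 genes was recomputed under 14 other settings, 1 of which (without the third Sle1b.BAC arrays of 4 h and 24 h) was chosen after seeing the data, and with each of the 26 arrays left out. No called difference changed its sign; 16 of 7560 values lost a call and 49 gained one, and 264 differences that were not called either way changed sign. The calls of Il4 and Csf2 against unstimulated cells, of Il13 at 24 h and of Il3 in Sle1b.BAC at 24 h held under all settings and left-out arrays run. With array brightness as a covariate 1 gene was called for B6.Sle1b against C57BL/6 unstimulated, 1 for Sle1b.BAC against B6.Sle1b unstimulated and 1 for Sle1b.BAC against C57BL/6 at 4 h, in place of 0. With array weights the counts were 5 in place of 3 for B6.Sle1b at 4 h, 2 for B6.Sle1b against C57BL/6 unstimulated, 2 at 4 h and 1 over the mean of times, 1 for its 4 h response, 1 for Sle1b.BAC against B6.Sle1b unstimulated and 1 for that 24 h response. With arrays left out the count between 4 h and 24 h ranged from 1 to 2 in C57BL/6 (1 without 4 h array 3 or 24 h array 1) and from 2 to 4 in Sle1b.BAC (4 without 24 h array 2). The replicate block changed 1 call, Csf2 between 4 h and 24 h in Sle1b.BAC (0.75, adjusted p = 0.0464), and no other. That block fitted the same replicate effect in all strains, so it cannot show what pairing within a strain would change. The causes were not tested. Signal over background limits Il5 and Il3, and 2 arrays limit C57BL/6 at 24 h.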
